A study of Mus musculus with 8 samples.

Results

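The deubiquitinase genes were taken as all mouse symbols of the Usp, Uch, Otub, Otud and Senp series, with Bap1, Cyld and Atxn3, that had a value in both the total RNA and the ribosome-bound RNA of MII oocytes, the ovulated eggs arrested at metaphase of the second meiosis. This rule found 63 of the 8537 genes with a value in both tables. Of these, 61 belong to protease families, whether or not each is active as an enzyme. They are 41 of the ubiquitin-specific protease family (40 Usp genes and Cyld), 4 ubiquitin C-terminal hydrolases (Uchl1, Uchl3, Uchl5 and Bap1), 8 ovarian tumour domain (OTU) proteases, the Josephin-domain protease Atxn3 and 7 Senp genes. The other two matched by symbol only: Uchl1os is an antisense RNA of the Uchl1 locus and Usp6nl encodes a GTPase-activating protein. Otud7a, Usp20, Usp25 and Usp40 matched in total RNA only and were not members, and no Usp17l gene was analysed here.

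Deubiquitinases remove ubiquitin from proteins and so oppose the ligases that mark proteins for the proteasome or for signalling. The Senp enzymes do the same for the related modifiers SUMO and, in the case of Senp8, NEDD8, and are not deubiquitinases in the strict sense. A fully grown oocyte does not transcribe while it matures, so the ubiquitin enzymes of the egg are made from stored mRNAs, whose translation is governed largely by their 3′-UTRs. Cytoplasmic polyadenylation elements (CPEs) in the 3′-UTR bind CPEB1, which controls the length of the poly(A) tail and thereby translation.

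All oocytes came from RiboTagF/F;Zp3-Cre C57BL/6 females, in which Cre driven by the oocyte promoter Zp3 switches the ribosomal protein Rpl22 to a form tagged with the HA epitope. Young mice were 1 month old and old mice were retired breeders of 12 to 15 months, and both received 5 IU of PMSG and, 48 h later, 10 IU of hCG, with ovulated oocytes collected after 13 h. Each age had 2 pools, each made up to 200 oocytes from frozen collections, and from each pool came an HA library (mRNA pulled down with the tagged ribosomes) and an input library (total RNA from 10% of the same lysate). Values are in CPM, that is, reads scaled to the size of the library, and the HA over input ratio of a pool is called its translation efficiency (TE). Ratios are given as measured, while log2 TE, its means and its differences were taken after adding 1 CPM to both values. With 2 pools an age, p-values measure only the spread between these pools, and an exact permutation test of 2 against 2 cannot go below a p of 0.333.

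The input libraries held 38276453 to 60052814 reads and the HA libraries 37817382 to 59688578, so 3 reads corresponded to 0.0435 to 0.0788 CPM in input and to 0.0388 to 0.111 CPM in HA. The oocyte label was borne out by all 9 oocyte markers, whose summed input level was 8723 to 8950.3 CPM in old and 9663 to 9698 CPM in young pools. In HA these 9 summed to 11459 and 17345 CPM in the old and 10940.3 and 11775 CPM in the young libraries. Of 13 cumulus and granulosa cell markers, 10 had input values summing to 36.6 to 234 CPM in old and 102 to 216 CPM in young pools. In HA, 5 of these 13 had values, and they summed to 85.2 and 95.8 CPM in the old and 162 and 188 CPM in the young libraries. That HA sum was mostly Cyp19a1, the aromatase of granulosa cells, and its part in the HA differences below was not tested. Epcam, the 1 of 5 oviduct epithelium markers with an input value, ranged from 0.0581 to 57.6 CPM, highest in old pool 1, and 0 of 5 blood markers had a value in the tables used. The old HA libraries stood apart in their spread. Between the 2 old HA libraries the members differed by a median of 1.47 on the log2(CPM + 1) scale and 24 of 63 were more than 4-fold apart, against a median of 0.61 and 6 members between the 2 young HA libraries. The input libraries were closer to each other, with medians of 0.56 between the old and 0.38 between the young pools. In input no member had 3 reads or fewer in any library, whereas in HA 9 members did in an old library and 1 of them, Otud7b, did in a young library as well. In bulk oocyte RNA, fewer contributing cells and less RNA per cell cannot be told apart.

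The CPE sequences TTTTAT and TTTTAAT, read on the sense strand, were searched in 3′-UTRs, taking for every gene the longest in the annotation (GENCODE M21, GRCm38). At least 1 of them was present in 51 of the 62 members with an annotated 3′-UTR (82.3%), and in 70.7% of all genes in both tables with one. The members' 3′-UTRs were longer, with a median of 1979 against 1331 bases. Within the last 100 bases, where a CPE lies close to the polyadenylation signal, 10 of 61 members with a 3′-UTR of that length held a motif (16.4%), against 21.8% of 7759 genes. A polyadenylation hexamer, AATAAA or ATTAAA, was found in the last 100 bases of 54 of these 61 members (88.5%) and of 82.1% of genes. The 9 sites below are shown because of the members they belong to. Some were among those with the highest HA over input (Usp19, Usp9x, Usp28) or are described in the HA or TE comparison below (Usp28, Usp46, Usp21). The others are a member with a low HA over input in every pool (Usp16) and 3 further members with a motif near the 3′ end (Usp37, Senp8, Senp1). Each line runs 5′ to 3′ on the sense strand and capitals mark the motif nearest the end of the 3′-UTR.
Usp28: caactatgcaggTTTTATaaatgtgcaata
Usp37: gttttgttttgTTTTAATgtgtgagagaca
Senp8: gtcttattcctaTTTTATaataaataaatg
Senp1: aggttttttttTTTTAATtgatttatttaa
Usp19: caaacattataaTTTTATtctaaaaattgt
Usp9x: taagtgcccagtTTTTATttctagtttgaa
Usp46: aaagcttgtagtTTTTATttaaaatttttt
Usp21: tcccgttattttTTTTATtaagaagtaccc
Usp16: tagcatactggtTTTTATtccttctagttt
The first 4 lie in the last 100 bases: Usp28 at chr9:49042461-49042490 (plus strand, motif 39 bases from the end), Usp37 at chr1:74435531-74435560 (minus strand, 32 bases), Senp8 at chr9:59734270-59734299 (minus strand, 23 bases) and Senp1 at chr15:98038785-98038814 (minus strand, 53 bases). The others lie farther upstream: Usp19 at chr9:108502219-108502248 (plus strand, 101 bases), Usp9x at chrX:13172818-13172847 (plus strand, 493 bases), Usp46 at chr5:73998570-73998599 (minus strand, 129 bases), Usp21 at chr1:171282061-171282090 (minus strand, 128 bases) and Usp16 at chr16:87483395-87483424 (plus strand, 105 bases). The 10 members with a motif in the last 100 bases, which also include Cyld, Senp3, Senp5, Uchl3, Usp22 and Usp47, had a median log2 TE of 0.31 over the 4 pools, and the other 51 a median of -0.81. Over all genes these medians were -0.33 for 1691 genes with and -0.60 for 6068 genes without such a motif. These medians are a description. A match is a stretch of letters and not a measured binding site.

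Total mRNA of the members summed to 10069 and 10745 CPM in the old and 9243 and 9831 CPM in the young input libraries. All genes of the input table also summed higher in old, to 1043772 and 1092639.8 CPM against 871584 and 1006023 CPM. Reads were counted over whole genes, introns included. Dividing them by kilobases of exon gives only a rough scale between genes, since intron reads can raise it to a different degree in each. On it, the highest mean input levels over the 4 pools were those of Uchl1 (107 CPM per kb), Usp9x (101), Usp28 (78.5), Usp30 (71.6), Usp46 (68.1) and Senp8 (65.7). Uchl1 is an abundant hydrolase of neurons and germ cells, and Usp9x is a large X-linked protease of oogenesis and early development. The order of the first 2 was not stable between pools, since Uchl1 had 117 and 132 CPM in the old and 352 and 95.4 CPM in the young input libraries. At the other end, Cyld, which trims linear and K63-linked chains, had 0.369 CPM per kb, Senp7 had 0.490, Atxn3 had 0.681 and Otud7b had 0.697.

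**Figure D1:**
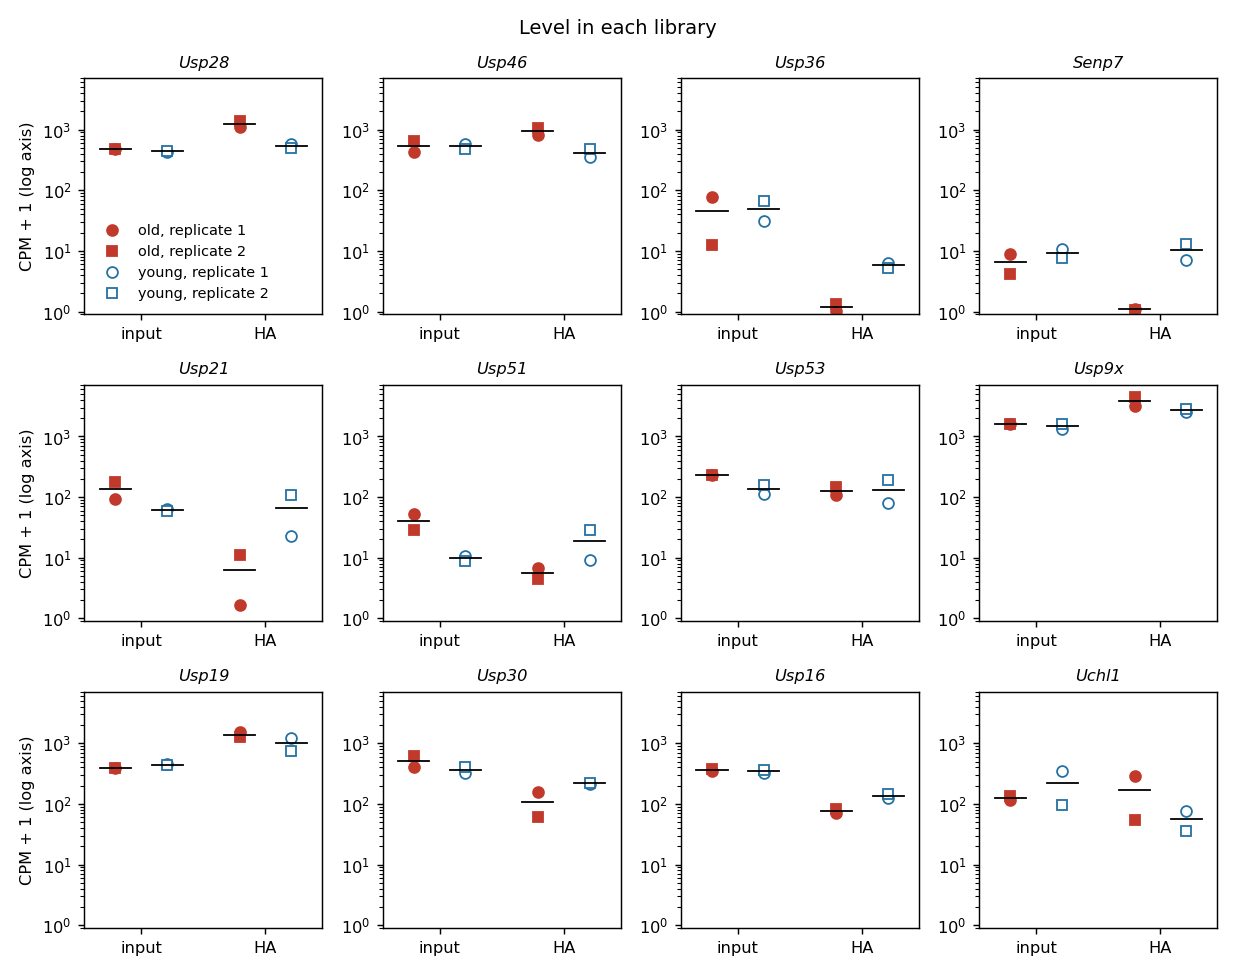
CPM + 1 of 12 members (log axis) in each input and HA library, with old and young pools in separate colours and bars at the mean of the 2 pools of an age. Usp28 and Usp46 have HA libraries of both old pools above both young pools while their input points lie together, the old HA points of Usp36 and Senp7 lie near the bottom of the axis, and those of Usp21 lie below its young HA points.

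Relative to total mRNA, the ribosome-bound level of the members spanned a wide range. The HA and input tables were scaled separately by the authors, so a ratio is described here in each pool and set beside that of all genes, and it was not tested against 1. The median TE of the members was 0.771 and 0.587 in old against 0.669 and 0.751 in young pools, and that of all genes in both tables was 0.687, 0.572, 0.729 and 0.724 in the same order. HA exceeded input in every pool for 9 members (14.3%; 8.01% of all genes): Atxn3, Usp7, Usp9x, Usp15, Usp19, Usp28, Usp37, Usp38 and Usp45. It was below input in every pool for 15 members (23.8%; 24.1% of all genes). No member reached an HA over input of at least 2 in every pool (0.773% of all genes did). Senp3, Usp13, Usp16, Usp36 and Usp54 were at 0.5 or less in every pool (7.94% of members; 5.29% of all genes), a count that fell to 1, Usp16, when members had to reach 10 CPM in 2 libraries of each table.

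Usp19, which has a form anchored in the endoplasmic reticulum, had the highest mean log2 TE. Its TE was 3.93 and 3.23 in old against 2.69 and 1.76 in young pools. Its HA level was 1517 and 1248 CPM in the old and 1237 and 754 CPM in the young libraries, on an input of 386 CPM in both old libraries and 459.7 and 429 CPM in the young libraries. All 4 pools thus had more Usp19 in HA than in input, and the 2 young pools were farther apart than the 2 old ones. Usp9x followed among the abundant members, at a TE of 2.03 and 2.85 in old and 1.95 and 1.79 in young pools. Its HA level of 2559 to 4497 CPM was the highest of all members, and its input level was 1597 and 1579 CPM in old and 1313 and 1612 CPM in young libraries. Atxn3, the polyglutamine protein of Machado-Joseph disease, and Usp12, a partner of the WD-repeat activator Wdr48, were also among the 6 highest, but with input levels of at most 7.04 and 17.6 CPM. Usp28 and Usp45, the latter linked to DNA repair, completed this group, with Usp45 at a TE of 1.16 to 3.43.

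The 6 members with the lowest mean log2 TE were Usp36, Usp21, Uchl5, Usp54, Usp13 and Usp49, and Usp16 was the most abundant of those at 0.5 or less in every pool. Usp16, a histone H2A deubiquitinase that acts in mitosis, had 348 and 378 CPM in the old and 327 and 358 CPM in the young input libraries. Its HA level was 70.7 and 80.4 CPM in the old and 124 and 143 CPM in the young libraries. Its TE was therefore low in all 4 pools, at 0.203 and 0.213 in old and 0.379 and 0.399 in young pools, and the ages did not overlap. The limma difference of -0.89 (SE 0.60, log2) had an adjusted p of 0.760. Uchl5, a hydrolase bound to the proteasome, ranged in TE from 0.00749 to 1.82 and Usp14, the other proteasome-bound member, from 0.152 to 1.07. Bap1, the H2A hydrolase of the Polycomb-repressive deubiquitinase complex, had a TE of 0.0994 to 0.510. Usp22, the histone H2B protease of the SAGA complex, ranged from 0.0281 to 2.70, with input levels between 1.55 and 49.7 CPM. The nucleolar protease Usp36 had a TE of 0.179 and 0.0655 in young pools. Its old HA libraries held 1 and 9 reads, so its old ratios and its place in the order are uncertain, as are those of Usp13 and Uchl5, which also had fewer than 10 reads in an old HA library. Usp54 and Usp49 had 0.0979 to 0.410 and 0.0361 to 1.32. Of the exon bases, 67.6% in Usp49 and 41.8% in Usp54 lie within the span of another gene. The counting did not use strand, so the reads of both are uncertain.

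**Figure D2:**
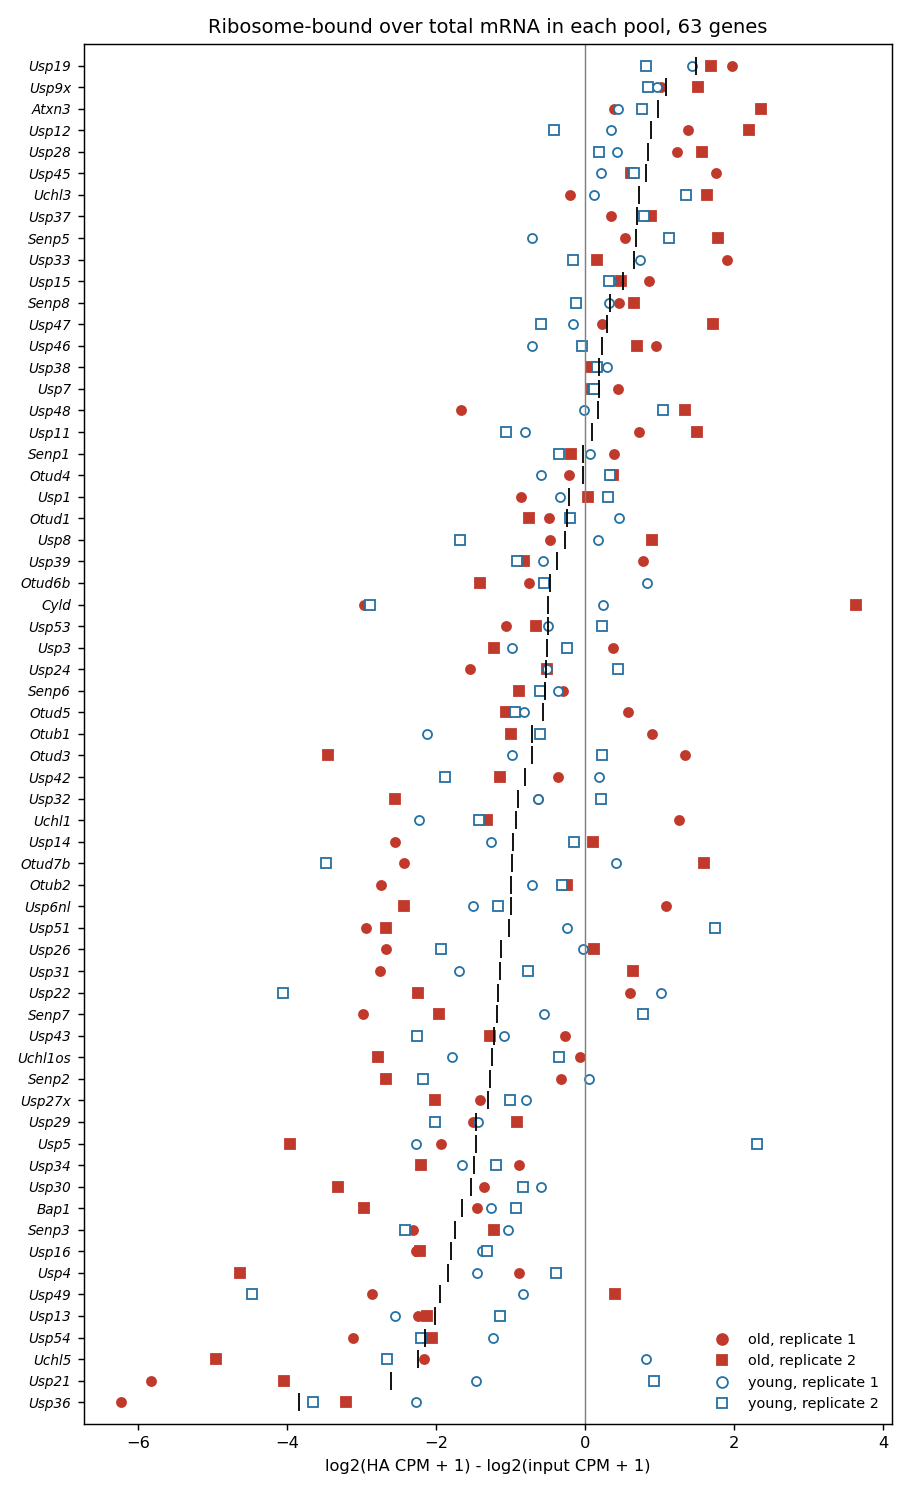
Log2 HA over input, with 1 CPM added to both, of all 63 members in the 4 pools, ordered by their mean, with 1 marker for each pool and a black tick at the mean of the 4 pools. Usp19 stands highest, Usp36, with 1 and 9 reads in its old HA libraries, is drawn last, 9 members lie above 0 in every pool and 15 lie below it.

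Total mRNA levels were compared between old and young oocytes first. No member passed an adjusted p of 0.05 in limma with Benjamini-Hochberg adjustment over 10530 genes (0.00950% of all genes did), with the smallest adjusted p at 0.778, and none did on recovered reads with edgeR's quasi-likelihood test, edgeR's likelihood ratio test (0.475% of genes) or DESeq2 (1.08% of genes). At an unadjusted p under 0.05, 3 members were higher in old oocytes (4.76%; 2.71% of all genes) and none lower (3.48% of all genes). Without old replicate 1 that total of 3 became 7 (11.1% of members and 11.1% of all genes) and without young replicate 1 it became 0 (2.88% of all genes). With libraries scaled to the same sum it was 1 higher (Usp51) and 2 lower (Usp32 and Usp34), 4.76% of members against 6.80% of all genes. Which members pass thus depends on the scaling, but none of these members changed direction. Usp21 and Usp53 still differed by 0.91 and 0.60 at the same sum. Both old pools lay above both young pools for 14 members (22.2%; 16.4% of all genes) and below for 11 (17.5%; 18.9% of all genes). The median difference was 0.12 on the log2(CPM + 1) scale, on which differences of low genes are understated, with 35 members higher and 28 lower in old. Over all genes the median was -0.03. By family, the median was 0.08 for the 41 Usp proteases, 0.02 for the 4 UCH, 0.45 for the 8 OTU and 0.05 for the 7 Senp genes.

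The 3 members with an unadjusted p under 0.05 were Usp21, Usp51 and Usp53. Usp21, a deubiquitinase of histone H2A and of signalling proteins, had 92.6 and 179 CPM in the old and 62.9 and 57.1 CPM in the young input libraries. Usp51, another histone H2A deubiquitinase, had 52.1 and 27.6 CPM against 9.85 and 7.73 CPM. Usp53, a protein of tight junctions, had 228 and 232 CPM against 110.3 and 160.1 CPM. Both old pools were above both young pools for each. The limma differences were 1.09 (SE 0.43) for Usp21, 2.00 (SE 0.76) for Usp51 and 0.79 (SE 0.32) for Usp53, each with an adjusted p of 0.778. That of Usp21 was 0.62 without old replicate 2, and that of Usp53 was 0.52 without young replicate 1. Usp37, a regulator of cyclin A, was next with 297 and 247 CPM against 189.9 and 168 CPM, a difference of 0.60 (SE 0.29). On the lower side, Usp32 had 43.3 and 55.3 CPM in old and 85.9 and 85.6 CPM in young pools. The differences of Usp32 (-0.80), Usp34 (-0.39), Usp3 (-0.39) and Usp13 (-1.55) had adjusted p-values of 0.783 to 0.875 in limma, although the old and young pools did not overlap for any of them. Some abundant members were close between the ages. Usp7, which acts on Mdm2 and p53, had 468 and 498 CPM in old and 474 and 507 CPM in young pools, a difference of -0.02 (SE 0.24), and Senp6, which shortens SUMO chains, differed by 0.05 (SE 0.24).

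Ribosome-bound mRNA was compared in the same way. In HA, limma with Benjamini-Hochberg adjustment over 8898 genes called no member and no gene (0% of all genes), with the smallest adjusted p of the members at 0.297. On recovered reads, edgeR's quasi-likelihood test called no member, its likelihood ratio test none either (3.32% of all genes), and DESeq2 called 1, Senp7 (adjusted p = 0.0168; 5.71% of all genes). At an unadjusted p under 0.05 in limma, 2 members were higher in old (3.17%; 4.28% of all genes) and 2 lower (3.17%; 10.5% of all genes). These 4 became 16 without old replicate 1 (25.4%; 26.1% of all genes) and 11 without old replicate 2 (17.5%; 19.7% of all genes). They became 7, all lower in old, when libraries were scaled to the same sum (11.1%; 15.7% of all genes), and 2, both lower, with quantile normalisation (3.17%; 5.43% of all genes). Leaving out 1 library also brought members past the adjusted threshold: Usp47 without old replicate 1 (1.59%; 4.42% of all genes), and Senp7 and Usp36 without young replicate 2 (3.17%; 7.13% of all genes). Both old libraries lay above both young libraries for 13 members (20.6%; 17.2% of all genes) and below for 10 (15.9%; 24.7% of all genes). The median HA difference of the members was 0.10, and that of all genes was -0.14. By family it was 0.14 for the Usp, -0.56 for the UCH, 0.05 for the OTU and -0.03 for the Senp genes. Scaling to the same sum moved the median of all genes to -0.68 and that of the members to -0.50. Quantile normalisation moved them to -0.05 and -0.07. The direction of the HA median thus depends on the scaling. The members' median was above that of all genes as scaled by the authors and at the same sum, and slightly below it with quantile normalisation.

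Usp28 and Usp46 were the 2 members higher in old HA libraries at an unadjusted p under 0.05. Usp28, a protease that stabilises substrates of the Fbxw7 ligase such as Myc, lies at chr9:48985375-49042517 on the plus strand of GRCm38 and overlaps no other annotated gene. It had 475 and 478 CPM in the old and 434 and 445 CPM in the young input libraries. In HA it had 1112 and 1408 CPM in the old and 580.0 and 503 CPM in the young libraries. The input libraries thus lay close together while both old HA libraries exceeded both young ones. The HA difference was 1.21 (SE 0.37, limma adjusted p = 0.297). Its adjusted p ranged from 0.0790 to 0.775 over the alternatives. The difference was 0.57 with libraries scaled to the same sum and 0.47 with quantile normalisation. It was 1.42 with median-ratio scaling, which aligns libraries by the median ratio of their genes. Relative to the median of all genes it was 1.35 as scaled by the authors, then 1.25, 0.52 and 1.37 in that order. Usp46, a close relative of Usp12 that also works with Wdr48, had 431 and 645 CPM in the old and 576 and 485 CPM in the young input libraries. Its HA level was 830.1 and 1050.3 CPM in the old and 351 and 472 CPM in the young libraries. The input pools overlapped between the ages and the HA libraries did not. The HA difference was 1.20 (SE 0.39, limma adjusted p = 0.297). It was 0.56 at the same sum, 0.52 with quantile normalisation and 1.41 with median-ratio scaling. Of the Usp46 exon bases, 44.8% lie within the span of another gene, among them the antisense genes Usp46os1 and Usp46os2, whose reads cannot be told apart from those of Usp46 without strand.

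Senp7 and Usp36 were the 2 members lower in old HA libraries at an unadjusted p under 0.05. Senp7, a protease of poly-SUMO chains, had 7.90 and 3.19 CPM in the old and 9.62 and 6.68 CPM in the young input libraries. Its HA level was 0.119 and 0.0739 CPM, or 5 and 2 reads, in the old libraries, against 6.20 and 12.2 CPM, or 480 and 690 reads, in the young ones. Senp7 was thus near 3 reads in both old HA libraries and well above that in both young ones. The HA difference was -3.15 (SE 0.93, limma adjusted p = 0.297, 0.0168 to 0.771 over the alternatives), and its size ranged from -6.53 to -1.44 over the pseudocounts, scalings and tools. Usp36 had 76.3 and 11.4 CPM in the old and 29.8 and 65.4 CPM in the young input libraries, so that the ages overlapped. In HA, 1 and 9 reads fell on it in old libraries against 414 and 243 in young libraries, which correspond to 0.0238 and 0.333 against 5.35 and 4.28 CPM. Its difference of -2.31 (SE 0.74) had a limma adjusted p of 0.297, which ranged from 0.0481 to 0.829 over the alternatives, and its size ranged from -4.77 to -0.90. Usp13, a relative of Usp5, was also lower in old HA libraries, with 0.594 and 0.0370 CPM against 1.90 and 6.89 CPM (-1.90, SE 0.82, limma adjusted p = 0.351, -3.77 to -0.77 over the alternatives). The abundant Senp1 and Usp15 were higher in old HA libraries, by 0.78 (SE 0.41) and 0.68 (SE 0.37), with limma adjusted p-values of 0.462 and 0.490. These differences depended on the scaling. Senp1 differed by 0.14 both at the same sum and with quantile normalisation, but by 0.99 with median-ratio scaling. Usp15 differed by 0.04 at the same sum and by 0.89 with median-ratio scaling, with no difference left under quantile normalisation. The summed cumulus cell markers in HA, mostly Cyp19a1, were lower in both old libraries, as given above. Of the single markers, Cyp19a1, Ptgs2 and Cd44 were lower in both old HA libraries, while Fshr and Vcan were highest in old library 2.

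**Figure D3:**
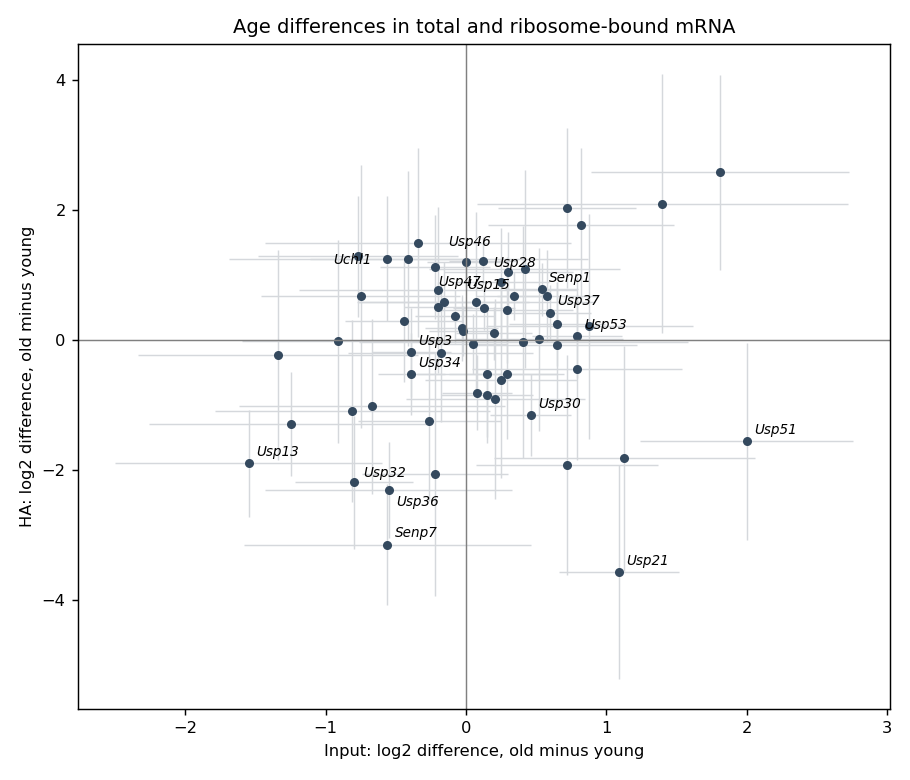
Old minus young difference in HA against that in input (log2 of CPM + 1) for the 63 members, with standard errors as bars and the members of the input, HA and TE comparisons named. Usp21 and Usp51 lie at the lower right, higher in old input and lower in old HA, while Usp28 and Usp46 lie above 1 in HA at an input difference near 0.

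Translation efficiency was then compared as HA over input within each pool. Over 8537 genes limma called no member and no gene at an adjusted p of 0.05 (0% of all genes), with the smallest adjusted p of the members at 0.739. At an unadjusted p under 0.05, 2 members were higher in old (3.17%; 2.98% of all genes) and 2 lower (3.17%; 3.51% of all genes). These 4 became 13 without old replicate 1 (20.6%; 25.2% of all genes), 8 without old replicate 2 (12.7%; 19.1%), 1 without young replicate 1 (1.59%; 1.99%) and 0 without young replicate 2 (0.715% of all genes). At the same sum none was higher and 3 were lower (Usp21, Usp30 and Usp51), 4.76% of members against 6.76% of all genes. With quantile normalisation none was higher and 2 were lower (Usp21 and Usp30), 3.17% against 5.42% of all genes. On the log2 TE scale, with 1 CPM added to HA and input, both old pools lay above both young pools for 10 members (15.9%; 17.2% of all genes) and below for 11 (17.5%; 20.4% of all genes). The ratios as measured of Usp36 and Usp13 were also below in both old pools, but not on that scale. The median TE difference was -0.02 (log2) over the members and -0.10 over all genes, with 31 members higher and 32 lower in old. It was 0.10 for the Usp, -0.57 for the UCH, -0.23 for the OTU and -0.04 for the Senp genes.

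Usp21 had the largest TE difference. Its TE was 0.00692 and 0.0552 in old against 0.350 and 1.91 in young pools. Its HA level was 0.641 and 9.91 CPM (27 and 268 reads) in the old and 22.0 and 109 CPM (1703 and 6180 reads) in the young libraries. Input and HA thus lay in opposite directions, with both old pools above both young pools in input and below them in HA. The TE difference was -4.66 (SE 1.31, log2), with a limma adjusted p of 0.739 that ranged from 0.0845 to 1.00 over the alternatives. Usp51 showed the same arrangement in TE, at 0.113 and 0.126 in old and 0.830 and 3.64 in young pools, a difference of -3.56 (SE 1.56). The outer-membrane mitochondrial protease Usp30, which opposes Parkin, had a TE of 0.388 and 0.0987 in old and 0.657 and 0.557 in young pools. Its difference was -1.62 (SE 0.73), -2.60 without old replicate 1 and -0.64 without old replicate 2, and 23.4% of its exon bases lie within the span of another gene. Senp7 had a difference of -2.59 (SE 1.48), or -4.83 to -1.10 over the alternatives. Each of the last 3 had an adjusted p of 0.739 in limma.

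On the higher side, Usp46 had a TE of 1.93 and 1.63 in old and 0.609 and 0.973 in young pools. Usp28 had 2.34 and 2.95 against 1.34 and 1.13. The ages did not overlap for either, and the differences were 1.20 (SE 0.46) and 1.09 (SE 0.43). The differences were 0.75 and 0.64 at the same sum, 0.71 and 0.49 with quantile normalisation, and 1.39 and 1.28 with median-ratio scaling. With the variance trend taken over mean TE in place of mean level, neither had an unadjusted p under 0.05. Usp47, which acts on DNA polymerase beta and beta-catenin, had 1.16 and 3.31 against 0.890 and 0.658 (1.35, SE 0.72), a difference that was 2.10 without old replicate 1 and 0.60 without old replicate 2. Uchl1 had 2.41 and 0.396 in old and 0.212 and 0.363 in young pools, with the high value in old pool 1, where its HA level was 283 CPM. Its difference was 1.80 (SE 0.97), 0.51 without old replicate 1 and 3.09 without old replicate 2. Of its exon bases, 18.1% lie within the span of another gene. All 4 of these had a limma adjusted p of 0.739. Usp11 was not among the 4 with the smallest p but had a larger difference, 2.05 (SE 1.13, limma adjusted p = 0.739). Its TE was 1.67 and 2.97 in old and 0.559 and 0.466 in young pools.

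**Figure D4:**
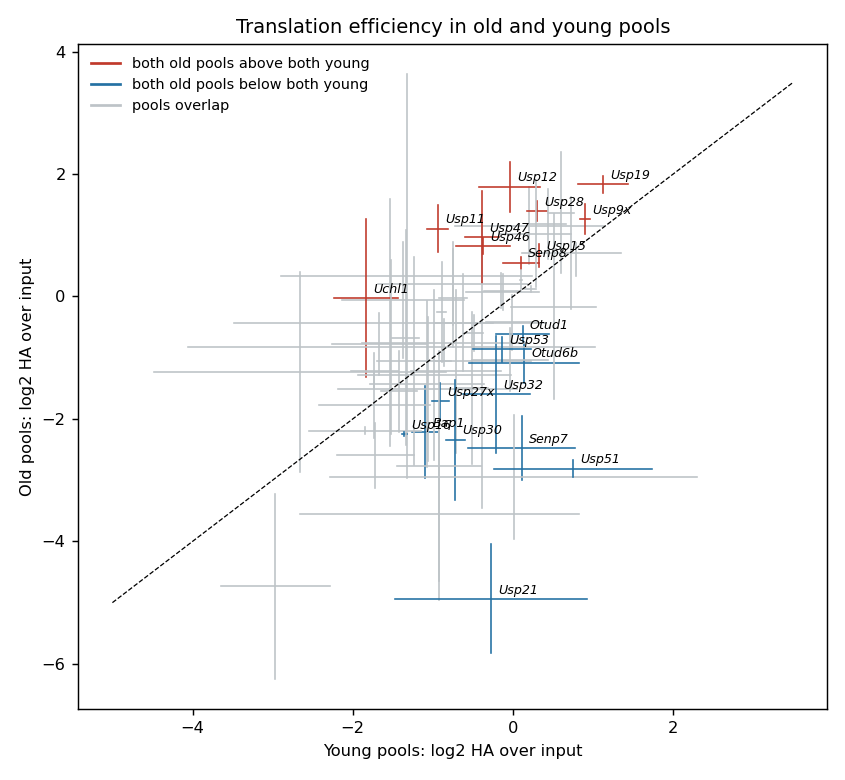
HA over input of the 63 members in old against young pools (both axes log2, 1 CPM added to HA and input), with each cross spanning the 2 pools of an age, the dashed diagonal marking equal values, and colours marking the 10 members with both old pools above and the 11 with both below the young pools. Usp21 and Usp51 fall below the diagonal and Usp28 and Usp46 above it, whereas Usp19 and Usp9x lie above 0 on both axes.

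A further list of members was described whatever their values, and some members are not described singly. Among the hydrolases, Bap1 had 30.9 to 96.4 CPM in input and 3.07 to 34.3 CPM in HA, and Uchl3, which also cleaves NEDD8, had 19.1 to 33.0 CPM in input and 16.4 to 91.4 CPM in HA. The ages overlapped for both. Otub1, an OTU protease that also blocks ubiquitin-conjugating enzymes, had 78.7 and 50.1 CPM in old and 41.9 and 34.0 CPM in young input libraries, and 147 and 24.5 CPM against 8.81 and 21.9 CPM in HA. Both measures were higher in both old pools, with limma adjusted p-values of 0.845 and 0.551. Atxn3 was likewise higher in both old pools, with 7.04 and 5.54 CPM against 0.885 and 1.26 CPM in input and 9.43 and 32.5 CPM against 1.55 and 2.82 CPM in HA (limma adjusted p = 0.781 and 0.522). Usp5, which disassembles free ubiquitin chains, had 4.91 to 32.5 CPM in input and 0.111 to 28.0 CPM in HA, and Usp14 had 19.7 to 43.5 CPM and 6.60 to 36.4 CPM. Usp8, an endosomal protease, had 3.23 to 6.57 CPM in input, and 96.2% of its exon bases lie within the span of another gene. Among the SUMO proteases, Senp1 and Senp6 were abundant, at 352 to 611 and 398 to 439 CPM in input, while Senp2 (3.96 to 31.9 CPM), Senp3 (4.03 to 22.8 CPM) and Senp5 (22.3 to 74.6 CPM) were low. The NEDD8 protease Senp8 had 257 and 248 CPM in old and 238 and 299 CPM in young input libraries, and 352 and 390.2 CPM against 297 and 275 CPM in HA, where the ages did not overlap (limma adjusted p = 0.802). Of the non-proteases, Usp6nl had 16.1 to 44.7 CPM and Uchl1os 6.64 to 14.9 CPM in input.

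Other genes of the pathway were read by the same tests. Of 24 deubiquitinases and related genes outside the rule, mostly of the JAMM, MINDY and OTU families, 18 were in the input table and 15 in the HA table. At an unadjusted p under 0.05, 1 was lower in old in input (3.48% of all genes), 3 in HA (10.5%) and 1 in TE (3.51%), and none was higher. Cops5, the catalytic subunit of the COP9 signalosome, had 56.9 and 40.5 CPM in old and 121 and 112 CPM in young input libraries (-1.26, SE 0.40, limma adjusted p = 0.778). In HA, Mysm1, a histone H2A deubiquitinase, had 63.7 and 64.9 CPM against 169 and 175 CPM (-1.40, limma adjusted p = 0.331). Psmd7, a subunit of the proteasome lid, had 0.0950 and 0.444 CPM against 8.58 and 7.10 CPM in HA, and the SUMO-directed Uspl1 had 0.0950 and 0.776 CPM against 9.54 and 20.7 CPM. The old libraries lay below the young ones for all 4 of these, which were picked by that p. Over all genes, both old lay below both young for 18.9% in input and 24.7% in HA. In old HA library 1, Psmd7 and Uspl1 were near the value of 3 reads (0.0713 CPM). The median difference of this list was 0.04 in input, -1.22 in HA and -0.69 in TE, against -0.03, -0.14 and -0.10 for all genes. Of 16 partners of the members, 14 were in the input table and 12 in the HA table, and Babam1, a BRISC and BRCA1-A subunit, was lower in old in both at an unadjusted p under 0.05. It had 0.129 and 0 CPM in old and 14.0 and 2.00 CPM in young input libraries. Of 15 genes for ubiquitin, NEDD8, SUMO and its conjugation, 12 were in the input table and 11 in the HA table, and none had an unadjusted p under 0.05 in any of the 3 comparisons. No gene of these lists passed the adjusted threshold in limma.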

How the data were processed

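RNA-Seq reads from 8 libraries of 4 MII oocyte pools, primed with random and poly(T) primers, were processed by the authors with Trimmomatic 0.36, HISAT2 against mm10, and HTSeq counts over whole genes of GENCODE M11 (introns included), without strand; how HTSeq treated reads shared by overlapping genes is not given in the sources used here. The deposited tables hold a normalised signal, in CPM after trimmed-mean (TMM) scaling by the authors in edgeR, separately for HA and input, which is why their sums can exceed the CPM base. Dividing each value by the value of 1 read gave whole reads for 100% of values (tolerance 0.001), from which reads per library were summed. All columns were used. The submitters' filter of at least 10 CPM in 2 libraries was met by 46 of 63 members in both tables, so genes below it are included here.

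Samples were grouped by the GEO labels. Old and young were compared with limma 3.58.1 (R 4.3.3), two-sided, on log2(CPM + 1), over all genes of a table, with a variance trend and Benjamini-Hochberg adjustment at 0.05, in 3 comparisons: input, HA, and TE (the log2 difference of HA and input within a pool). The trend of TE ran over the mean log2 level of the 8 libraries, in place of mean TE, a choice made after the data were seen. The tests were tested on simulated data. The count tests edgeR 4.0.16 (likelihood ratio, as in the study's methods, and quasi-likelihood) and DESeq2 1.42.0 served as alternatives on the recovered reads, since the deposited values are CPM. In input they called 50 (likelihood ratio), 0 (quasi-likelihood) and 114 (DESeq2) genes, and in HA 295, 0 and 508. Other alternatives were pseudocounts of 0.1 and 5, the 10 CPM filter, other scalings, a replicate block and leaving out each library.

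The members and lists were chosen with earlier results of these data known. Genes named with tests were the 4 higher and 4 lower members with the smallest unadjusted p in each comparison. Others were named by level (the 6 highest and 6 lowest mean log2 TE, the 6 highest input per kb) or from a list. Usp11 was added for the size of its TE difference. Exon lengths, overlaps and 3′-UTRs came from GENCODE M21 (GRCm38), the build named mm10 by the authors. Ranges of 3 reads cover counting error only, since no molecular identifiers were used.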

Additional observations from a re-analysis of the deposited data

How the results depend on the processing

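Of 371 values of the named members under the alternatives, 367 kept their direction and their side of the adjusted threshold, 3 passed that threshold (Senp7 in HA with DESeq2, and Senp7 and Usp36 in HA without young replicate 2) and 1 reversed, Usp15 in HA with quantile normalisation (-4e-05). Members with an unadjusted p under 0.05 numbered 0 to 7 in input, 3 to 16 in HA and 0 to 13 in TE when 1 library was left out, and members with an adjusted p under 0.05 in HA numbered 0 to 2. In HA, the 4 members became 2 with the 10 CPM filter, 4.35% of members against 9.52% of all genes. They became 7 at the same sum (0 higher and 7 lower in old, against 15.7% of all genes) and 2 with quantile normalisation (against 5.43%). In TE the 4 became 2 with quantile normalisation, both lower in old (against 5.42%). In input, the 3 higher members became 1 higher (Usp51) and 2 others lower (Usp32 and Usp34) at the same sum, with no change of direction. DESeq2 called 1 member in HA. The 5 members with HA at most 0.5 of input in every pool became 3 with a pseudocount of 5 and 1 with the 10 CPM filter, and at the same sum 1 member, Usp19, was at least 2 in every pool. The cause of these moves was not tested. At the same sum the median difference of the members moved from 0.12 to -0.07 in input, from 0.10 to -0.50 in HA and from -0.02 to -0.35 in TE, and with DESeq2 to 0.46 in HA. With the replicate block, 3 members in input, 5 in HA and 4 in TE had an unadjusted p under 0.05. These were 4.76%, 7.94% and 6.35% of members, against 6.44%, 15.5% and 7.12% of all genes. In TE, Usp30 took the place of Usp51. The replicate numbers are shared by 2 pairs only, and the deviations of same-numbered pools correlated at 0.0269 in input and 0.0786 in HA. The replicate numbers were therefore not taken to pair the samples. With a trend over mean TE, an alternative chosen after seeing the data, the 4 members in TE became 3 (Usp11, Usp21 and Usp51). These were 4.76% of members, against 6.56% of all genes. Over all genes in HA, adjusted calls rose from 0 to 9 with the block, 393 without old replicate 1 and 634 without young replicate 2, and an unadjusted p under 0.05 was met by 381 genes upward and 930 downward, by 112 and 1283 at the same sum and by 253 and 230 with quantile normalisation. Each age had 2 pools, and members near 3 reads cannot be ranked.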

Other observations

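The 4 genes of the rule that had input values only were low throughout. In the order old replicate 1, old replicate 2, young replicate 1 and young replicate 2, Usp25 had 5.11, 2.67, 0.145 and 4.49 CPM, Usp20 had 4.47, 1.44, 2.64 and 1.81 CPM, Otud7a had 1.86, 3.77, 0.856 and 6.47 CPM, and Usp40 had 1.64, 0, 1.19 and 0.473 CPM.

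Some members differed more between pools of one age than between the ages. In HA, Cyld had 0.0475 and 16.1 CPM in old and 1.11 and 0.511 CPM in young libraries. Otud7b, a protease of K11-linked chains, had 0 and 8.46 CPM in old and 11.8 and 0.0176 CPM in young HA libraries. Usp22 had 49.7 and 9.73 CPM in old and 1.55 and 29.5 CPM in young input libraries. Usp31 had 353 and 126 CPM in old input libraries and 51.3 and 197 CPM in old HA libraries, so that the old pool with more total mRNA had less in HA. Usp4 had 41.9 and 0.407 CPM in old HA libraries and 22.2 and 43.9 CPM in young ones. Usp31 and Usp4 were singled out after their values were seen.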
